A study of Mus musculus with 18 samples.

Results

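The neutrophil genes described here are 9 genes taken by symbol from the deposited count table of mouse hearts: S100a8, S100a9, Csf3r, Trem1, Retnlg, Mpo, Ly6g, Clec4d and Clec4e. All 9 were found among its 25731 gene symbols. The study compared hearts at day 7 after surgery in adult male wild-type C57BL/6 mice: sham-operated hearts (SHAM), hearts with ischemia-reperfusion (IR), in which blood flow is stopped and restored, and hearts with ischemia-reperfusion and decursin, a coumarin compound from Angelica root (IR+Decursin). Each group holds 6 animals and 1 RNA-seq library per animal. No dose or vehicle for decursin is given in the sources used here, and SHAM and IR animals carry no agent in the labels.

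Neutrophils are short-lived white blood cells that leave the bone marrow under the control of the cytokine G-CSF and are among the first cells to enter injured heart muscle. They carry large amounts of S100A8 and S100A9, calcium-binding proteins that pair to form calprotectin and act as danger signals when released. Monocytes and some macrophages also make several of these transcripts, and blood left in a heart contributes neutrophils of its own.

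Libraries held 27.5 to 34.97 M counts. The labels give each group a batch of its own, so a difference between groups cannot be told apart from one between batches. Libraries IR 3, IR 4 and IR+Decursin 2, labelled male, each held over 1000 counts of the female-expressed RNA Xist, and the gene model Gm26917 took 7.54% of the counts in IR+Decursin 6. The heart label was borne out by cardiomyocyte genes: the 8 listed summed to 59712 to 70329 CPM (counts scaled to a library total of 1 M) in SHAM, 32868 to 44407 in IR and 38012 to 61675 in IR+Decursin. CPM values here use TMM factors, which correct for the make-up of a library.

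S100a8 and S100a9 are neighbours on mouse chromosome 3, and Clec4d and Clec4e on chromosome 6. The RefSeq promoters of both pairs are shown because the pairs came out differently below: the lectin genes passed the test in IR and the S100 genes did not. Each line gives the 250 bases before the annotated start, 5′ to 3′ on the gene's own strand, on build GRCm38.p6 (S100a8, chr3:90668821-90669070, plus strand; S100a9, chr3:90695722-90695971, minus strand; Clec4d, chr6:123261857-123262106, plus strand; Clec4e, chr6:123289872-123290121, minus strand). Capitals mark 3 motifs that were searched for on both strands: GAGGAA, the core of sites of the myeloid factor PU.1, TTGCNNAA, the core of C/EBP sites, and TATAAA, the letters of the TATA box.
S100a8: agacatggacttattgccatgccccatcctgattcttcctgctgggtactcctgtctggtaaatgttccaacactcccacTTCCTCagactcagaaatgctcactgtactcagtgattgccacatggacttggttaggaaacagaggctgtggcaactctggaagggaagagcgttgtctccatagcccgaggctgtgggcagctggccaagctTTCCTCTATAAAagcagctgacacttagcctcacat
S100a9: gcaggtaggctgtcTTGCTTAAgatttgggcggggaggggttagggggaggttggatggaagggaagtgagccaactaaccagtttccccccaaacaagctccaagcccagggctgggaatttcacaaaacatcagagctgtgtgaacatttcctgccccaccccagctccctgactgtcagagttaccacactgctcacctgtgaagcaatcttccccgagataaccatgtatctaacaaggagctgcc
Clec4d: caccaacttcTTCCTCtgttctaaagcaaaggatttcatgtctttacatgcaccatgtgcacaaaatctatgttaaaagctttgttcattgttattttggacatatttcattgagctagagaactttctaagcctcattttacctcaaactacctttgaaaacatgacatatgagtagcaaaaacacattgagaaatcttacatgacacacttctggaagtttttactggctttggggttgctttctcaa
Clec4e: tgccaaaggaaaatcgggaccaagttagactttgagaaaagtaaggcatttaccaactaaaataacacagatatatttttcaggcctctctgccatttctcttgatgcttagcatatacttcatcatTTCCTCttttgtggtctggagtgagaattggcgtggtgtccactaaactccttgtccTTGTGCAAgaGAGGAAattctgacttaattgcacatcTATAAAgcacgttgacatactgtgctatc

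In S100a8 the second PU.1 core runs directly into the TATA box, which begins 30 bases before the start. S100a9 held 1 C/EBP core and no match to the other motifs in these letters. Clec4d held 1 PU.1 core, and Clec4e held 2 PU.1 cores, 1 C/EBP core and a TATA box 29 bases before the start. All 9 genes had a promoter in the RefSeq table, with 10 promoters in all because Ly6g had more than 1. A gene was counted if any of its promoters matched, whereas the shares of mouse promoters below are per promoter. A PU.1 core was present in 7 of the 9, against 23.3% of 32851 mouse promoters of the same length. A C/EBP core was present in 4 of 9, against 9.56%. The letters TATAAA were present in 3 of 9, against 12.4%, a share that counts matches on either strand. All TATAAA matches in the 9 genes lay on the gene's own strand, for which no separate share is given here. These matches describe letters, not occupied sites.

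In IR hearts the receptor genes of the list rose. Csf3r, Trem1, Clec4d and Clec4e were higher than in SHAM by log2 fold changes of 3.03 to 5.42, with every IR library above every SHAM library. The abundant transcripts S100a8 and S100a9, and Retnlg, had higher medians in IR but did not pass the test, and 2 sham hearts, SHAM 2 and SHAM 5, held them at levels reached in IR. In IR+Decursin the same 4 receptor genes were above SHAM by 2.06 to 3.43. No gene of the list differed between IR+Decursin and IR after adjustment.

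Tests used edgeR's quasi-likelihood F-test with Benjamini-Hochberg adjustment over all 15088 genes that passed a low-count filter, with adjusted p under 0.05 as the threshold. Of the 9 genes, 7 passed the filter, and Mpo and Ly6g had too few counts. The filter asks for about 10 counts in at least 6 libraries. Csf3r reached that in all 6 SHAM libraries. The other 6 tested genes did so in 1 SHAM library (Trem1), 2 (Retnlg, Clec4d and Clec4e), 4 (S100a8) or 5 (S100a9) and in all 6 IR libraries, so they passed with the help of the groups where they are high, and the count of tested genes that rose is a description. That count was 4 of 7 in IR against SHAM, where 25.3% of all genes tested were called higher. It was 4 of 7 in IR+Decursin against SHAM, where the share was 17.5%. With no filter, 5 of all 9 genes passed in IR against SHAM: the same 4 and Mpo (edgeR adjusted p = 0.000715 for Clec4d, 0.000735 for Clec4e, 0.00108 for Trem1, 0.00128 for Csf3r and 0.00397 for Mpo). The 25.3% share belongs to the filtered genes. No share of all genes is given here for the unfiltered fit, so the count of 5 is a description too. With the filter, both counts were again 4 without the 3 libraries with over 1000 Xist counts, and without IR+Decursin 6. In bulk tissue, fewer neutrophils and less RNA per neutrophil cannot be told apart.

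**Figure D1:**
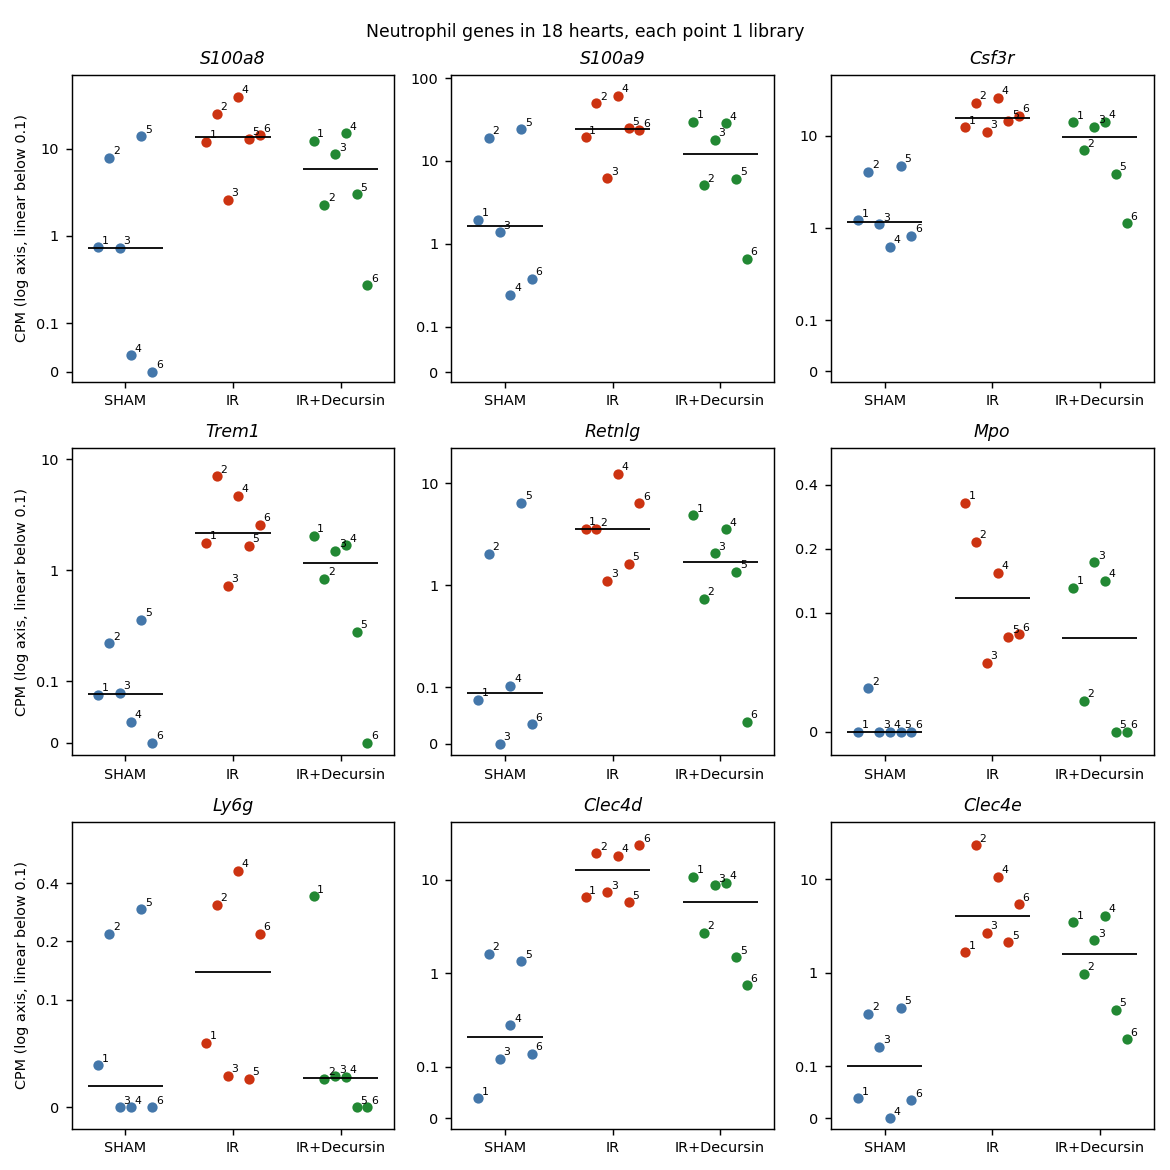
Level of each of the 9 neutrophil genes (CPM, log axis that is linear below 0.1) in SHAM, IR and IR+Decursin, with 1 point per library and a bar at the group median. SHAM 2 and SHAM 5 lie above the other SHAM libraries for S100a8, S100a9 and Retnlg, whereas for Csf3r, Trem1, Clec4d and Clec4e the IR libraries lie above all SHAM libraries.

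Csf3r encodes the receptor for G-CSF, the cytokine that drives neutrophil production and survival. In SHAM it ranged from 0.622 to 4.72 CPM with a median of 1.15, in IR from 11.1 to 25.6 with a median of 15.4, and in IR+Decursin from 1.13 to 14.1 with a median of 9.72. SHAM and IR did not overlap, and IR+Decursin covered the interval from the SHAM level to the lower IR libraries. Csf3r rose in IR (log2 fold change 3.03 ± 0.59 SE, adjusted p = 0.000555, 6 of 6 libraries above all SHAM). It also rose in IR+Decursin against SHAM (2.06 ± 0.58, adjusted p = 0.0142), where 4 of 6 libraries lay above all SHAM libraries. Of all genes tested, 15.4% had every IR library above every SHAM library, and 4.44% had every IR+Decursin library above every SHAM library.

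Trem1 encodes a receptor of neutrophils and monocytes that amplifies inflammatory signalling through the adaptor DAP12, the product of Tyrobp. It was close to the counting limit in SHAM, at 0 to 0.358 CPM with a median of 0.0792. IR hearts held 0.724 to 6.97 CPM (median 2.16) and IR+Decursin hearts 0 to 2.02 (median 1.17). The highest SHAM library was below the lowest IR library, and 1 treated heart, IR+Decursin 6, had no Trem1 count at all. Trem1 rose in IR (4.50 ± 0.84, adjusted p = 0.000307) and in IR+Decursin against SHAM (2.99 ± 0.85, adjusted p = 0.0137, 4 of 6 libraries above all SHAM).

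Clec4d and Clec4e encode the C-type lectins MCL and Mincle, which recognise microbial glycolipids, form complexes with each other and signal through the Fc receptor gamma chain. Clec4d measured 0.0389 to 1.61 CPM in SHAM (median 0.207), 5.77 to 23.4 in IR (median 12.7) and 0.739 to 10.9 in IR+Decursin (median 5.73). Clec4e measured 0 to 0.423 CPM in SHAM (median 0.1002), 1.65 to 22.9 in IR (median 4.03) and 0.194 to 4.07 in IR+Decursin (median 1.59). For both genes the SHAM and IR ranges were separate, and the top IR libraries differed: IR 6 and IR 2 for Clec4d, IR 2 and IR 4 for Clec4e. Each rose in both comparisons with SHAM, with 6 of 6 IR and 4 of 6 IR+Decursin libraries above all SHAM libraries. Clec4d rose in IR (4.48 ± 0.81, adjusted p = 0.000305) and in IR+Decursin against SHAM (3.24 ± 0.80, adjusted p = 0.00695). Clec4e had the largest change of the list in IR (5.42 ± 0.98, adjusted p = 0.000278) and rose in IR+Decursin against SHAM (3.43 ± 0.98, adjusted p = 0.0150). On the log2(FPKM + 1) scale, the IR+Decursin changes of Clec4e and Trem1 against SHAM were 0.60 and 0.33 and did not pass (limma adjusted p = 0.203 and 0.176). In IR+Decursin, FPKM was at most 1.46 for Clec4e and 0.631 for Trem1, so the added 1 shrinks changes on that scale.

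S100a8 and S100a9 encode the chains of calprotectin. S100a8 lay between 0 and 13.7 CPM in SHAM (median 0.732), between 2.61 and 39.0 in IR (median 13.5) and between 0.272 and 15.0 in IR+Decursin (median 5.78). S100a9 lay between 0.242 and 24.2 CPM in SHAM (median 1.66), between 6.20 and 61.4 in IR (median 24.1) and between 0.661 and 29.6 in IR+Decursin (median 12.0). The groups overlapped for both genes. SHAM 5 held 13.7 CPM of S100a8 and 24.2 of S100a9, and SHAM 2 held 7.84 and 19.0. The other 4 SHAM libraries held at most 0.738 and 1.94, below every IR library.

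The fitted changes in IR against SHAM were 2.18 ± 1.04 for S100a8 (adjusted p = 0.0977) and 1.96 ± 0.99 for S100a9 (adjusted p = 0.117), with 3 of 6 IR libraries above all SHAM libraries for each. Their 95% intervals reached from -0.04 to 4.40 and from -0.15 to 4.08. Without SHAM 5 the changes were 3.24 (adjusted p = 0.0283) and 2.75 (adjusted p = 0.0479). Without both SHAM 2 and SHAM 5, an alternative chosen after seeing the data, they were 5.58 (adjusted p = 0.00239) and 4.97 (adjusted p = 0.00252). The call for the calprotectin genes therefore changed with those sham hearts. It also changed with the scale: on log2(FPKM + 1) with all libraries, limma gave 3.25 (adjusted p = 0.00800) and 3.14 (adjusted p = 0.0104). That scale carries no correction for library make-up, and the median of all genes there was 0.17. A two-sided exact permutation test of log2(CPM + 1), not adjusted, gave p = 0.0195 for S100a8 and 0.0238 for S100a9.

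In IR+Decursin against SHAM, S100a8 differed by 0.84 ± 1.03 (adjusted p = 0.580) and S100a9 by 0.90 ± 0.98 (adjusted p = 0.527), neither past the threshold. Without SHAM 2 and SHAM 5, the alternative chosen after seeing the data, these were 4.24 (adjusted p = 0.0216) and 3.91 (adjusted p = 0.0185). Leaving out the highest SHAM libraries raises such changes by construction.

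Retnlg encodes a resistin-like secreted protein that is abundant in mouse neutrophils. It ranged from 0 to 6.45 CPM in SHAM (median 0.0907), from 1.10 to 12.3 in IR (median 3.54) and from 0.0389 to 4.84 in IR+Decursin (median 1.70). SHAM 5 was above all but 1 of the IR libraries, whereas 4 SHAM libraries held at most 0.104 CPM. The change in IR against SHAM was 1.69 ± 1.05 and did not pass (adjusted p = 0.203). Without SHAM 5 it was 3.37 (adjusted p = 0.0192), and without SHAM 2 and SHAM 5 it was 6.31 (adjusted p = 0.00106). These 2 were left out together after seeing the data, and leaving out the highest SHAM libraries raises the fold by construction. The 4 SHAM libraries left held 0 to 3 Retnlg counts each, so the size of that fold is not reliable. In IR+Decursin against SHAM the change was 0.52 ± 1.05 (adjusted p = 0.749), and without those 2 sham hearts 5.14 (adjusted p = 0.0111), with the same limits.

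Mpo, the gene of the granule enzyme myeloperoxidase, and Ly6g, the surface antigen by which mouse neutrophils are usually sorted, were sparse. Summed over the libraries of a group, Mpo counts were 1 for SHAM, 32 for IR and 17 for IR+Decursin. Each IR library held 2 to 11 Mpo counts, and the single SHAM count was in SHAM 2. The IR to SHAM ratio per count total was 30.9 (95% interval 5.16 to 1258, counting error only). Every IR library lay above every SHAM library in CPM, and a two-sided exact permutation test of log2(CPM + 1) gave p = 0.00216 (n = 6 against 6), the smallest this test can give. The exact permutation p was 0.193 for IR+Decursin against IR and 0.106 for IR+Decursin against SHAM. These p-values were not adjusted, and 6 such comparisons of Mpo and Ly6g were made.

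Ly6g counts summed to 16 over the SHAM libraries, 40 over IR and 16 over IR+Decursin. Of the SHAM counts, 9 were in SHAM 5 and 6 in SHAM 2, and 13 of the 16 IR+Decursin counts were in IR+Decursin 1. The groups overlapped, with exact permutation p = 0.290 for IR against SHAM, 0.212 for IR+Decursin against IR and 0.913 for IR+Decursin against SHAM (n = 6 each, two-sided). Differences in Ly6g were not detectable at this depth. Reads of Ly6g can be shared with related Ly6 genes, and how such reads were counted is not given in the sources used here.

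**Figure D2:**
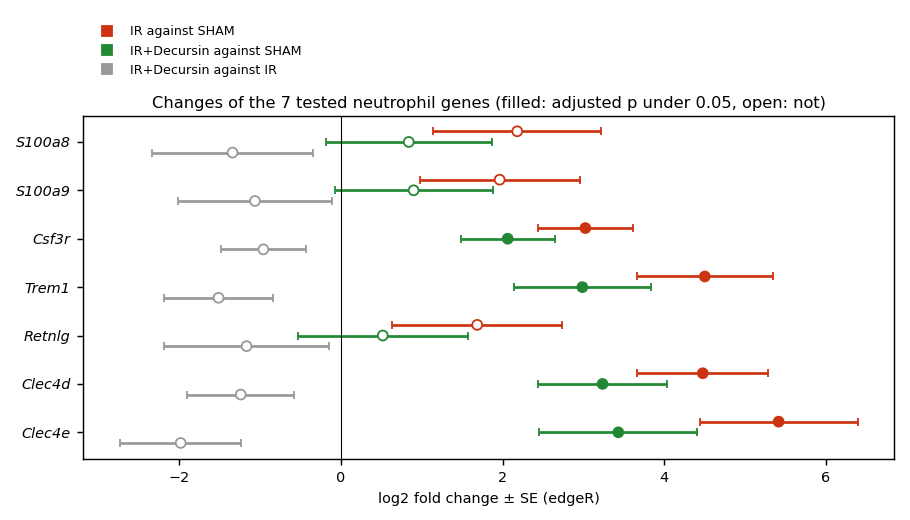
Log2 fold change with its SE for the 7 tested neutrophil genes in IR against SHAM, IR+Decursin against SHAM and IR+Decursin against IR (filled points: adjusted p under 0.05). Filled points appear for Csf3r, Trem1, Clec4d and Clec4e in both comparisons with SHAM, and all points of IR+Decursin against IR are open and below 0.

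Against IR, all 7 tested genes had a lower fitted level in IR+Decursin, by 0.96 to 1.99 on the log2 scale, and none passed the test. Across libraries with group means removed, each of the 7 correlated with their mean, itself included (Pearson r 0.80 to 0.97). The shared direction is therefore not 7 independent results. The background share called in this comparison was 0%, since 0 of 15088 genes passed. At an edgeR p under 0.05 before adjustment, 7.87% of all genes were lower, and 2 of the 7 were. These were Clec4e (-1.99 ± 0.75, edgeR adjusted p = 0.197) and Trem1 (-1.52 ± 0.67, edgeR adjusted p = 0.250). DESeq2 also called none of the 7, and 1 had an unadjusted p under 0.05. The 95% interval ran from -3.59 to -0.38 for Clec4e and from -2.94 to -0.09 for Trem1.

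The other 5 had intervals that include 0. Clec4d differed by -1.24 ± 0.66 (interval -2.65 to 0.17), Csf3r by -0.96 ± 0.53 (-2.09 to 0.17) and S100a8 by -1.34 ± 0.997 (-3.47 to 0.78). S100a9 differed by -1.07 ± 0.96 (-3.10 to 0.97) and Retnlg by -1.17 ± 1.02 (-3.35 to 1.01). An exact permutation test of log2(CPM + 1) gave p = 0.0368 for Csf3r before adjustment. The edgeR intervals hold both a several-fold reduction and no change. The median of all genes was -0.02 in this comparison. The comparisons with IR and with SHAM share libraries and are not independent of each other.

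The IR+Decursin hearts were unlike one another. IR+Decursin 6 was among the lowest 2 of its group for all 9 genes and IR+Decursin 5 for 6 of 9, whereas IR+Decursin 1 and IR+Decursin 4 were each among the highest 2 for 8. For Csf3r, IR+Decursin 6 held 1.13 CPM and IR+Decursin 5 held 3.89, within the SHAM range, and the other 4 libraries held 6.96 to 14.1. Clec4d showed the same division, with 0.739 and 1.48 CPM in IR+Decursin 6 and 5, and 2.70 to 10.9 in the others. Genes of other immune cells were low in IR+Decursin 6 too. Its summed macrophage genes, at 461 CPM, were the lowest of the group and below the SHAM maximum of 470, whereas IR+Decursin 5 held 734 CPM, above SHAM and above the 710.0 CPM of IR+Decursin 2. The mean log2(CPM + 1) of the monocyte genes was 1.56 in IR+Decursin 6 and 2.48 in IR+Decursin 5 against a group median of 3.29. In values outside the immune genes, IR+Decursin 6 also lay near SHAM. Its TMM factor was 0.831, against 0.840 to 0.921 in SHAM and 1.03 to 1.12 in the other treated hearts. It held counts for 18590 genes, inside the SHAM range of 18435 to 18966, as did IR+Decursin 5 with 18856. Its Myh6 level of 18719 CPM lay inside the SHAM range of 15476 to 21206, as did those of IR+Decursin 2 and 5. IR+Decursin 6 is also the library with the large Gm26917 share, and the part of that share in these values was not tested.

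In SHAM the pattern was different. SHAM 2 and SHAM 5 were the highest 2 libraries for all 9 neutrophil genes, ties at low counts included, and their mean log2(CPM + 1) over the 7 tested genes was 1.93 and 2.30 against 0.23 to 0.55 in the other 4. The macrophage genes in these 2 libraries, at 4.54 and 4.64, lay inside the range of the other 4 (4.23 to 4.69). The monocyte genes, at 1.505 and 1.46, also lay inside it (1.32 to 1.64). Genes of red cells and platelets were at the low end in them, at 3.86 and 3.59 against 3.95 to 4.71. The 15 tested granule and other neutrophil genes followed the 9 genes, at 0.81 and 1.09 against 0.24 to 0.35.

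The other lists tied to neutrophil function were also highest in SHAM 2 and SHAM 5. The adhesion genes stood at 3.04 and 3.03 against 2.55 to 2.70 in the other 4 SHAM libraries, the partners and receptors at 3.87 and 3.95 against 3.61 to 3.74, and the chemokines and cytokines at 0.73 and 0.67 against 0.30 to 0.56. Icam1, the adhesion molecule of activated endothelium, measured 28.2 CPM in SHAM 2 and 22.8 in SHAM 5 and at most 12.2 in the others, and is named here after its values were seen. The higher level in these hearts was therefore not limited to genes of neutrophils themselves.

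**Figure D3:**
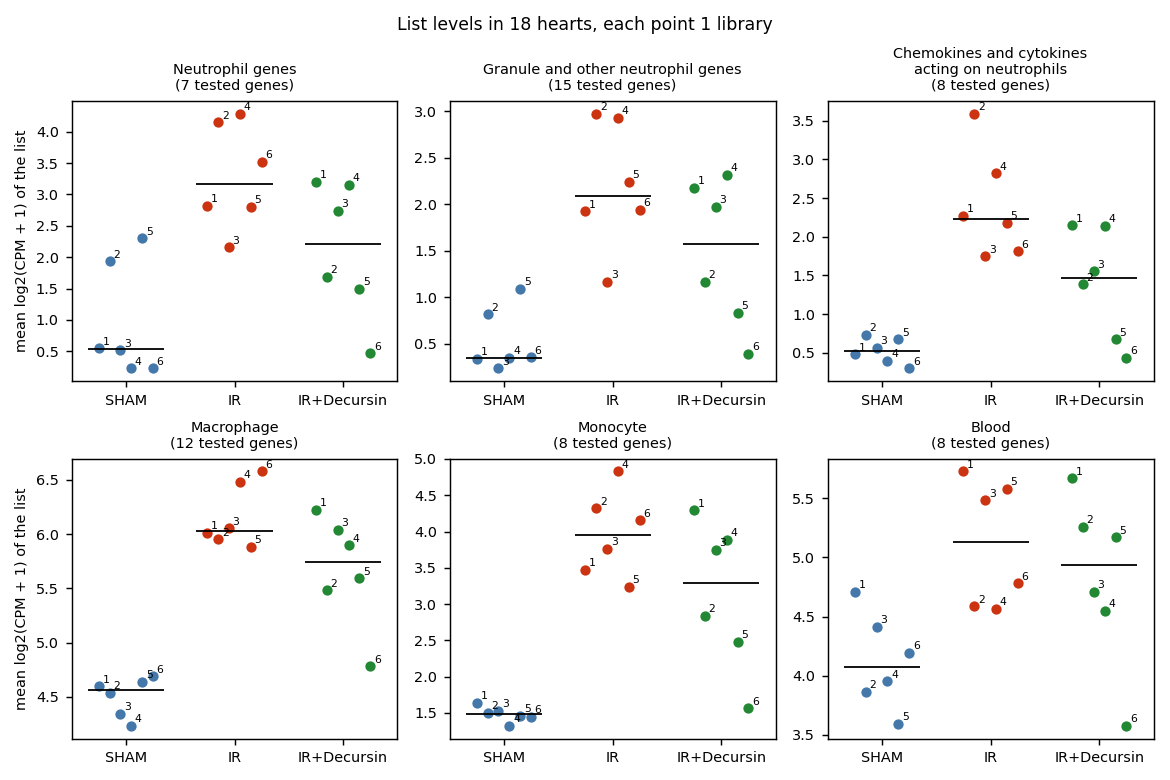
Mean log2(CPM + 1) of the tested genes of each list in SHAM, IR and IR+Decursin, with 1 point per library and the group median as a bar. SHAM 2 and SHAM 5 stand above the other SHAM libraries for the neutrophil genes (1.93 and 2.30 against at most 0.55) and lie among them for macrophage and monocyte genes.

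Spread between hearts of one group was large for all 7 tested genes. The biological coefficient of variation, which edgeR estimates from the variation within groups, was 1.34 for Retnlg, 1.33 for S100a8, 1.14 for S100a9, 0.976 for Clec4e, 0.895 for Clec4d, 0.885 for Trem1 and 0.661 for Csf3r. The median over all genes tested was 0.165. For Csf3r, the least variable of the 7, 97.7% of genes had a lower value, and for Retnlg 99.9%. The 3 genes that did not pass in IR against SHAM were the 3 with the highest variation. The same 3 genes also had the smallest fitted changes of the 7 in that comparison. Whether variation or the size of the change kept them from passing was not tested.

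Per transcript length, levels can be compared between the genes. Median FPKM values in IR ran from S100a9 (49.7) and S100a8 (37.2) through Clec4d (11.1), Retnlg (6.15), Csf3r (3.59), Clec4e (1.45), Trem1 (0.627) and Ly6g (0.157) to Mpo (0.0534). S100a9 exceeded S100a8 in 18 of 18 libraries. Clec4d exceeded Retnlg in 4 of 6 IR libraries, Retnlg exceeded Csf3r in 4 of 6 and Ly6g exceeded Mpo in 4 of 6, so the order of these neighbours was not stable between hearts. Clec4e exceeded Trem1, and Trem1 exceeded Ly6g, in 6 of 6.

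The order differed in sham hearts. Median FPKM values in SHAM were 2.74 for S100a9 and 1.63 for S100a8, then 0.215 for Csf3r, 0.141 for Clec4d and 0.132 for Retnlg, with Clec4e, Trem1, Ly6g and Mpo at most 0.0295. Csf3r ranked above Clec4d and Retnlg in SHAM and below both in IR, and Clec4d exceeded Retnlg in only 3 of 6 SHAM libraries. In IR+Decursin the first 7 genes stood in the IR order: 23.9 for S100a9, 15.4 for S100a8, 4.54 for Clec4d, 2.91 for Retnlg, 2.23 for Csf3r, 0.561 for Clec4e and 0.344 for Trem1. The medians of Mpo (0.0346) and Ly6g (0.0314) were close, and Mpo exceeded Ly6g in 2 of 6 libraries, so these have no order.

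The balance of the calprotectin chains was narrower than their levels. Among the 15 libraries with at least 10 counts of each gene, the S100a8 to S100a9 ratio in FPKM lay between 0.508 and 0.849, with a median of 0.678. SHAM 4 had a ratio of 0.191 from 1 and 7 counts, and SHAM 6 had no S100a8 count and was left out. The mean log2 ratio was -1.02 ± 0.80 in SHAM (SD, n = 5), -0.46 ± 0.23 in IR (n = 6) and -0.70 ± 0.14 in IR+Decursin (n = 6). The difference of -0.24 between IR+Decursin and IR did not pass a two-sided exact permutation test (p = 0.0541, 0.123 after adjustment over 3 comparisons). Without IR 3 it was -0.32 with an adjusted exact permutation p of 0.0390. The SHAM group differed from IR by 0.57 (exact permutation p = 0.0823) and from IR+Decursin by 0.32 (exact permutation p = 0.511). SHAM 4 carried much of both. With only the libraries that held at least 10 counts of each gene, the SHAM mean was -0.68 ± 0.28 (SD, n = 4), the difference from IR 0.23 (exact permutation p = 0.181) and that from IR+Decursin 0.01 (exact permutation p = 0.937). IR+Decursin against IR was -0.21 in these libraries (exact permutation p = 0.104).

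**Figure D4:**
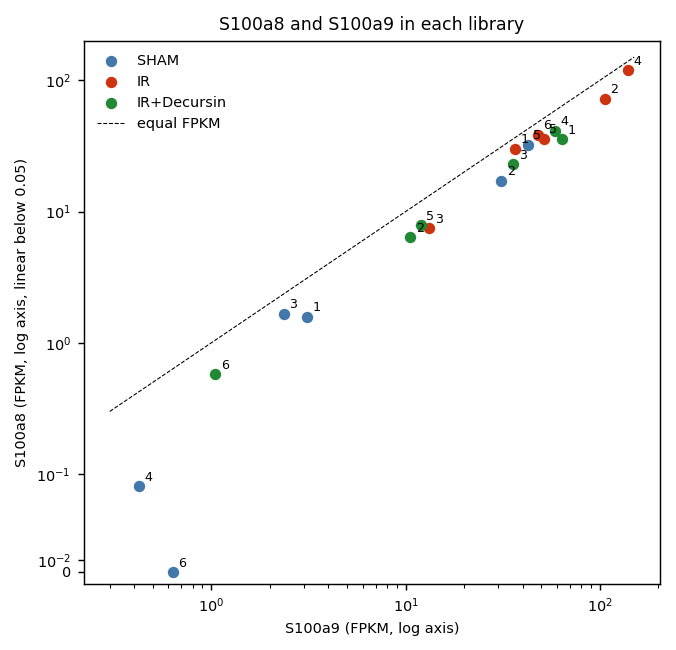
S100a8 against S100a9 in each of 18 libraries (FPKM, log axes, the S100a8 axis linear below 0.05), with a dashed line at equal values. All points lie below the line, and SHAM 2 and SHAM 5 lie among the IR and IR+Decursin libraries while the other 4 SHAM libraries lie at the lower left.

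Other genes of neutrophils moved in the same direction in IR. Of 24 granule and other neutrophil genes, 15 were tested, with a median log2 fold change of 2.91 in IR against -0.00 for all genes. Of the 15, 14 rose in IR, where 25.3% of all genes tested rose. This too is a description, since Lcn2 alone of the 15 reached the filter's limit in all 6 SHAM libraries. Among them were Mmp9, a matrix-degrading protease (4.93 ± 0.98, adjusted p = 0.000710), the formyl peptide receptor Fpr1 (4.87 ± 0.98, adjusted p = 0.000657), Lcn2, which binds bacterial iron carriers (3.81 ± 0.77, adjusted p = 0.000873), and Padi4, the enzyme of neutrophil extracellular traps (2.54 ± 0.56, adjusted p = 0.00110). The exception was the cystatin-like Stfa2l1 (2.27 ± 0.98, adjusted p = 0.0653), named after its value was seen. In IR+Decursin against SHAM 8 of the 15 rose, where 17.5% of all genes did. Against IR none passed, with 3 at an unadjusted p under 0.05, a level that 18% of all genes reached in either direction. The lowest p against IR was that of Fpr2 (-2.10 ± 0.69, adjusted p = 0.152). Genes of early granules differed: Elane had 2 counts and Ctsg 3 in all 18 libraries, whereas Prtn3 passed the filter. Prtn3 reached the filter's limit in 0 SHAM, 2 IR and 4 IR+Decursin libraries. These 3 genes are named after their values were seen.

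Of 11 chemokines and cytokines that act on neutrophils, 8 were tested and all 8 rose in IR, where 25.3% of all genes tested rose. Only 1 of the 8, Cxcl1, reached the filter's limit in all 6 SHAM libraries, so the filter kept mainly genes that are high in injured hearts and the count is a description. The lowest adjusted p were those of Il6, an inflammatory cytokine, and of the CXCR2 ligands Cxcl3, Ppbp and Cxcl2. Il6 had 1 count over the SHAM libraries and 531 over IR (adjusted p = 1.75e-05), and Cxcl3 had 1 and 323 (adjusted p = 9.74e-05). No fold is given for these from so few SHAM counts. Cxcl2 rose from 7 to 508 counts (adjusted p = 0.000202) and Ppbp by 2.91 ± 0.50 (adjusted p = 0.000141). In IR+Decursin against SHAM 4 of 8 passed, all higher, where 17.5% of all genes were called higher. Against IR none passed, and 7.87% of all genes were lower at an unadjusted p under 0.05. Of the 8 genes, 5 were lower at that level. Of these Tnf was at -1.39 ± 0.38 (adjusted p = 0.111) and Cxcl2 at -2.78 ± 0.77 (adjusted p = 0.119). Csf3, the gene of G-CSF itself, was counted 53 times over the IR libraries, 6 times over IR+Decursin and 0 times over SHAM, and was not tested.

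Adhesion genes that bring neutrophils through the vessel wall rose in 8 of 9 cases in IR, where 25.3% of all genes tested rose. The leukocyte integrin chains Itgb2 (2.61 ± 0.28), Itgal (2.39 ± 0.32) and Itgam (2.67 ± 0.38) and the selectin ligand Selplg (2.503 ± 0.31) had adjusted p of 5.35e-06 to 3.75e-05. The endothelial gene Pecam1 did not pass (0.05 ± 0.09, adjusted p = 0.669) and is named after its value was seen. Against SHAM 6 of 9 rose in IR+Decursin, where 17.5% of all genes did. Against IR none passed, and 3 had an unadjusted p under 0.05, which 18% of all genes had in either direction. Itgal (-0.90 ± 0.29, adjusted p = 0.149) and Itgb2 (-0.77 ± 0.26, adjusted p = 0.157) had the lowest.

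Partners and receptors of the 9 gene products changed less. Of 12 listed, 11 were tested and 9 rose in IR with a median of 0.59, and 6 rose in IR+Decursin against SHAM. Of all genes tested, 25.3% and 17.5% rose in these comparisons. The adaptors Tyrobp (2.20 ± 0.28, adjusted p = 1.51e-05) and Fcer1g (2.15 ± 0.30, adjusted p = 3.32e-05), which carry the signals of Trem1 and of the lectins, and Socs3 (2.51 ± 0.44, adjusted p = 0.000243), a brake on G-CSF signalling, had the larger changes. The kinase Syk rose by 0.83 ± 0.12 (adjusted p = 1.88e-05). Against IR none passed in IR+Decursin, and 5 of 11 had an unadjusted p under 0.05, which 18% of all genes had in either direction. Tyrobp (-0.85 ± 0.27, adjusted p = 0.144) and Syk (-0.34 ± 0.12, adjusted p = 0.155) had the lowest.

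Relatives of the 9 genes did not all move with them. The resistin-like Retnla (-0.53 ± 0.60, adjusted p = 0.496) and the endothelial Ly6c1 (-0.20 ± 0.12, adjusted p = 0.164) did not pass in IR against SHAM. Ly6c2 (3.20 ± 0.61, adjusted p = 0.000405), a monocyte antigen, and the lectin genes Clec4a2 (2.32 ± 0.31, adjusted p = 1.64e-05) and Clec4n (2.29 ± 0.35, adjusted p = 5.03e-05) rose. Trem2, of lipid-handling macrophages, rose by 3.35 ± 0.36 (adjusted p = 5.31e-06). Retnlb and Trem3 had too few counts to test.

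Markers of other cells that could share these transcripts moved as well. In IR 10 of 12 macrophage genes and 8 of 8 monocyte genes rose, with median log2 fold changes of 1.44 and 3.37. Of all genes tested, 25.3% rose in IR. All 12 macrophage genes and 3 of the 8 monocyte genes reached the filter's limit in every SHAM library. The summed macrophage level was 322 to 470 CPM in SHAM, 911 to 1483 in IR and 461 to 1126 in IR+Decursin. The summed monocyte level was 34.8 to 45.6, 127 to 306 and 43.3 to 279 CPM in the same order. Both ranges were separate between SHAM and IR, and of both lists a single marker was at 0 in any library, the monocyte gene Chil3 in SHAM 6. The lowest adjusted p among the monocyte genes were those of Ccr2 (3.55 ± 0.46, adjusted p = 2.05e-05) and Fcgr1 (2.77 ± 0.42, adjusted p = 7.11e-05), and among macrophage genes after Trem2 that of C1qc (1.45 ± 0.18, adjusted p = 7.46e-06). In IR+Decursin against SHAM 10 of 12 macrophage and 7 of 8 monocyte genes rose, where 17.5% of all genes did.

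Of 8 red cell and platelet genes, 5 rose in IR and 3 in IR+Decursin against SHAM, including Pf4 of platelets and some macrophages (1.62 ± 0.27 in IR, adjusted p = 0.000138). Of all genes tested, 25.3% and 17.5% rose in these comparisons. The summed level of the 8 genes was 219 to 652 CPM in SHAM, 453 to 1334 in IR and 209 to 1039 in IR+Decursin, so the groups overlapped. All 8 cardiomyocyte genes fell in IR, with a median of -0.69, and 4 fell in IR+Decursin against SHAM. Of all genes tested, 21.7% and 11.8% fell in these comparisons. The part of monocytes, macrophages, retained blood and cardiomyocyte loss in the neutrophil gene values was not tested.

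Across the 18 libraries, with each group's mean removed, the 5 genes most alike the mean of the 7 tested genes were Socs3 (Pearson r = 0.96), Bcl3 (r = 0.93), Cfp (r = 0.92), Cxcr2 (r = 0.91) and Emb (r = 0.91). The libraries share depth and make-up, so these values are a description, with no p. Cxcr2, the main chemokine receptor of neutrophils, measured 1.99 CPM in SHAM 5 and 0.985 in SHAM 2 and at most 0.155 in the other SHAM libraries. Cfp, the gene of the complement factor properdin, measured 13.4 and 11.7 CPM in SHAM 5 and 2 and 8.11 to 8.46 in the other 4. Socs3 measured 9.86 and 7.92 CPM in the same hearts and at most 3.30 in the others. All 5 genes were highest in SHAM 5, followed by SHAM 2, among sham hearts. This follows largely from how they were chosen, since the mean they were matched to is highest in the same 2 sham hearts.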

How the data were processed

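Total RNA of 18 hearts was sequenced, 1 library per animal, per the labels. The authors deposited raw counts per gene symbol and FPKM values. Per the submitters' processing notes, fastp, HISAT2 and HTSeq were used with build GRCm39. The deposited FPKM equal counts scaled by gene length and library total (largest relative deviation 1.58e-09), so they carry no correction for library make-up. Neither the strand setting nor the treatment of reads shared between genes is given in the sources used here.

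Counts were fitted in edgeR 4.0.16 (R 4.3.3) with filterByExpr by group, TMM factors and 1 robust quasi-likelihood fit of all 18 libraries (15 residual degrees of freedom). Tests are two-sided, with Benjamini-Hochberg adjustment over 15088 genes. SE is the size of the log2 fold change divided by the square root of F. CPM use TMM factors, and 95% count-ratio intervals cover counting error only. Permutation tests were exact. Alternatives were DESeq2 1.42.0, limma 3.58.1, other scalings and filters, and libraries left out. Scripts were tested on simulated data.

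The 9 genes and the lists were chosen with earlier results of these data known. Named are all 9 genes, their relatives, and from each list up to 4 genes with the lowest adjusted p in IR against SHAM (up to 2 with the lowest p where a comparison called none). Promoters are from RefSeq (GRCm38.p6), another build than that of the counts.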

Additional observations from a re-analysis of the deposited data

Results flagged for a closer look

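Within each group of 6, the highest and lowest library of each of the 9 genes was compared with its nearest neighbour by Dixon's ratio at its 95% critical value, which gave 27 combinations of gene and group. Chance marks about 1 in 20 such groups. A single library stood apart in 3 combinations. SHAM 5 held 6.45 CPM of Retnlg, and the next SHAM library 2.04. SHAM 2 held the only Mpo count in SHAM, 0.0365 CPM, a value of 1 read. IR+Decursin 1 held 0.342 CPM of Ly6g, and the next library of its group 0.0288. The test does not mark S100a8 or S100a9 in SHAM, where 2 libraries are high together.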

How the results depend on the processing

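Of the 695 values of single neutrophil genes under alternatives, 664 kept their direction and side of the threshold, 3 no longer passed, 28 newly passed and 0 changed sign. The exact permutation test entered this count with its p unadjusted, under the same limit of 0.05. By that test S100a8, S100a9 and Retnlg newly passed in IR against SHAM, and Csf3r in IR+Decursin against IR. The 4 genes called in IR against SHAM became 7 with limma on log2(FPKM + 1) or log2(FPKM + 0.1), 7 without SHAM 2 and SHAM 5, and 7 without these and IR+Decursin 5 and 6 (chosen after seeing the data). Leaving out single libraries gave 4 to 7, with 7 only without SHAM 5. The 4 called in IR+Decursin against SHAM became 2 on log2(FPKM + 1), with or without a minimum mean of 1 FPKM, 7 without SHAM 2 and SHAM 5, and 7 without all 4 libraries, and stayed at 4 without any single library. No alternative called a gene in IR+Decursin against IR by adjusted p. The cause of these shifts was not tested. The share of all genes called under each alternative is not given here, so the changed counts are a description. Scaling by library total alone moved the median of all genes to 0.31 in IR against SHAM and kept 4 calls. Without the libraries with over 1000 Xist counts the calls were 4, 0 and 4.

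The difference in log2 S100a8 to S100a9 ratio ranged from -0.32 (without IR 3) to -0.20 for IR+Decursin against IR, from 0.23 to 0.72 for IR against SHAM, and from -0.019 (without SHAM 4, a change of sign) to 0.48 for IR+Decursin against SHAM, when single libraries were left out.

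With the replicate number as a block, 4, 0 and 4 genes were called in the 3 comparisons. The labels do not say that the numbers pair animals. Deviations of same-numbered libraries correlated from -0.52 to 0.41 over 18 pairs, 3 of them over 0.1, and in 3 of 18 the own number correlated best. These correlations show no common pairing by number but cannot exclude it. Depth limits Mpo and Ly6g, whose counts per library did not exceed 18.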
